A study of Rattus norvegicus with 3 samples.

Results

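Chemokine ligands and receptors were taken as the genes whose current rat symbol is Ccl, Cxcl, Cx3cl, Xcl, Ccr, Cxcr, Cx3cr, Xcr or Ackr followed by a number, the symbol being looked up from the RefSeq accession of each array probe. There were 49 such genes, 30 ligands and 19 receptors, among 13301 genes named on the array. Their RNA was compared in the osteosarcoma line COS1NR, the malignant fibrous histiocytoma (MFH) line MFH1NR and bone marrow mesenchymal stem cells (MSCs). All came from F344 rats. Per the study's text, each sarcoma line came from a tumor induced with 4-hydroxy quinolone 1-oxide and carries a p53 mutation, whereas MSCs were grown out of femur marrow on plastic and were not sorted by surface markers. Each sarcoma is represented by 1 line, and 1 array was hybridized per cell type, so there are no replicate cultures to test a difference against and the number of arrays limits every comparison.

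Chemokines are small secreted proteins that guide migrating cells, and the CC and CXC families are named for the spacing of their conserved cysteines. Their receptors couple to inhibitory G proteins, whereas atypical receptors such as Ackr3 bind chemokines, recruit arrestin and take up the ligand. In bone marrow, Cxcl12 made by stromal cells holds hematopoietic cells that carry Cxcr4. Inflammatory chemokines such as Ccl2 and Cxcl1 are made by stromal cells and macrophages alike, and many are switched on by NF-kB or by interferon.

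The neighboring genes Cxcl1, Cxcl2 and Cxcl6, which encode ligands of neutrophil receptors, are shown first because they carry a related element close to the start of transcription although Cxcl1 and Cxcl2 differed between the arrays in unlike ways and Cxcl6 was detected on none. Of the 49 genes, 38 had a RefSeq promoter (GRCr8). Each run below holds the 250 bases before the start, 5′ to 3′, with matches of the kappaB consensus of NF-kB in capitals. They lie at chr14:17479322-17479571 on the minus strand, chr14:17467256-17467505 on the minus strand and chr14:17596418-17596667 on the minus strand.
Cxcl1: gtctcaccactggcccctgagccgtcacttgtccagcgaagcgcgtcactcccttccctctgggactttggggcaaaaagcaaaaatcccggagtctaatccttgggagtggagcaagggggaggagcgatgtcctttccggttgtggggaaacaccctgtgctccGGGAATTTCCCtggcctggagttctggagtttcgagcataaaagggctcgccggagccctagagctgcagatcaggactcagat
Cxcl2: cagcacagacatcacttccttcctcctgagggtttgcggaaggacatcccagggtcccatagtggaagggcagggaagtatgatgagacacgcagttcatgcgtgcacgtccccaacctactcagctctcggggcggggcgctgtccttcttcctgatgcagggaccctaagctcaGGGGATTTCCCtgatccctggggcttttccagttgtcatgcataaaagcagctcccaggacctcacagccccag
Cxcl6: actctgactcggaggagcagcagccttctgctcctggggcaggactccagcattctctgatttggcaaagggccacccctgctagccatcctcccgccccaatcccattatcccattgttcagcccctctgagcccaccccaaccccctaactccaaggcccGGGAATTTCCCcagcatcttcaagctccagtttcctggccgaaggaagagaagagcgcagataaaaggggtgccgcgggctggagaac

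Each capital stretch holds 2 overlapping matches, which begin at -84 in Cxcl1, -74 in Cxcl2 and -88 in Cxcl6, counted from the start. On either strand, the kappaB consensus was present in 8 of the 38 promoters (21.1%), namely those of Ccl9, Ccl20, Ccr3, Cxcl1, Cxcl2, Cxcl6, Cxcl10 and Cxcl11. Of all 27457 promoters of this length, 3.52% held it. A match is a description of these letters and not evidence of binding.

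Promoters of Cxcl10, Ccl20 and Ccl7 are shown because these genes were, respectively, lower than MSCs in each sarcoma, near the MSC level in COS1NR only, and the most different between the sarcomas. Capitals mark, in the order of the sequence, the interferon element (GAAA, any 2 bases, GAAA), kappaB and the AP-1 element TGANTCA in Cxcl10, kappaB in Ccl20 and AP-1 in Ccl7. They lie at chr14:15988816-15989065 on the plus strand, chr9:91836909-91837158 on the plus strand and chr10:67513845-67514094 on the plus strand.
Cxcl10: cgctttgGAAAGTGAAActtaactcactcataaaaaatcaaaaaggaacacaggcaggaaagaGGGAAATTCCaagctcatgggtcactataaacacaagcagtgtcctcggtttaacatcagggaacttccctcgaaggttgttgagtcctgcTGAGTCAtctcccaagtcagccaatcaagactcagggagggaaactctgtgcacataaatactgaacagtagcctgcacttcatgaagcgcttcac
Ccl20: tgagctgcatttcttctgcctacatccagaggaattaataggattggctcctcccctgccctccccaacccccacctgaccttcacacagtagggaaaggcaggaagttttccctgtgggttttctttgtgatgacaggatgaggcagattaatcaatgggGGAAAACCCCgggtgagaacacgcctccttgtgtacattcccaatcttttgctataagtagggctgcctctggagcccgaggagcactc
Ccl7: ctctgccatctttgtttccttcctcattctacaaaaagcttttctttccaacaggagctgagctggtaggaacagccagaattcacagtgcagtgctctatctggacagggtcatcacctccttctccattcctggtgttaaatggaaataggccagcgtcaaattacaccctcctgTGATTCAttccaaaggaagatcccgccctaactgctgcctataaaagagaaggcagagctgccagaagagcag

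The interferon element was in 2 of the 38 promoters (5.26%), against 3.29% of all promoters, and AP-1 in 7 (18.4%), against 6.36%, all searched on both strands. A further element, the C/EBP sequence TTNNGNAAT, was in 3 (7.89%), against 10.7%. The AP-1 and kappaB matches of Cxcl11 lie next to each other, from -85 to -79 and from -74 to -65, whereas those of Cxcl10 are apart, at -96 and -187.

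Intensities below are Agilent processed intensities, not scaled between arrays. Ratios were taken after each intensity was divided by the 75th percentile of its array, which was 589 for MSCs, 774 for COS1NR and 994 for MFH1NR. A probe counted as detected where the software called it well above background, and where it was not detected on one array only a bound of the fold is given. Detection began at an intensity of 17.9 for MSCs, 29.4 for COS1NR and 30.1 for MFH1NR. No spot was saturated. MSCs were hybridized on a separate slide from the sarcomas. Per the study's text, they were also grown in more fetal bovine serum than the sarcoma lines. In every ratio to MSCs, effects of the slide, of the serum and of the cell type therefore cannot be told apart. Bulk RNA also does not separate fewer cells of a type from less RNA per cell.

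Of the 49 genes, 28 were detected on at least 1 array (57.1%), against 75.2% of all genes named. In MSCs 27 were detected, in COS1NR 19 and in MFH1NR 17. Ligands were detected more widely than receptors, with 21 of 30 ligands and 7 of 19 receptors on at least 1 array. Detected on all arrays were 15 genes, all of them ligands except Ackr3, and 8 were detected in MSCs alone (16.3%, against 4.41% of all genes named). The 21 genes detected nowhere were Ccl11, Ccl17, Ccl19, Ccl21, Ccl24, Ccl25, Ccl26, Ccl28 and Cxcl6 of the ligands, and Ccr2, Ccr3, Ccr6, Ccr9, Ccr10, Cxcr1, Cxcr2, Cxcr5, Cxcr6, Cx3cr1, Xcr1 and Ackr2 of the receptors. Ccr1l1, a Ccr1-like gene outside the naming rule, was detected in both sarcomas at 32.3 and 42.6 and not in MSCs, but was bounded at only 1.38-fold and 1.41-fold higher.

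Compared with MSCs, 20 of the 28 genes (71.4%) were at least 2-fold lower in COS1NR and 4 were at least 2-fold higher (14.3%). Among all 10006 genes detected on at least 1 array, 19.4% were lower and 20.0% higher by as much. In MFH1NR, 21 were lower and 2 higher (75% and 7.14%), against 21.2% and 19.0% of all genes. Both comparisons use the same MSC array. The 8 genes detected in MSCs alone could only be lower. Among the 15 detected on all arrays, 10 were lower in COS1NR and 11 in MFH1NR, against 15.1% and 16.2% of all genes so detected. The median log2 ratio of the genes with a value was -1.68 in COS1NR and -3.56 in MFH1NR, beside 0.11 and 0.02 for all genes. Bounds made up 9 of the 27 ratios in COS1NR, the median itself among them, and 12 of the 28 in MFH1NR. These counts and medians describe 3 arrays, and no test was possible.

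**Figure D1:**
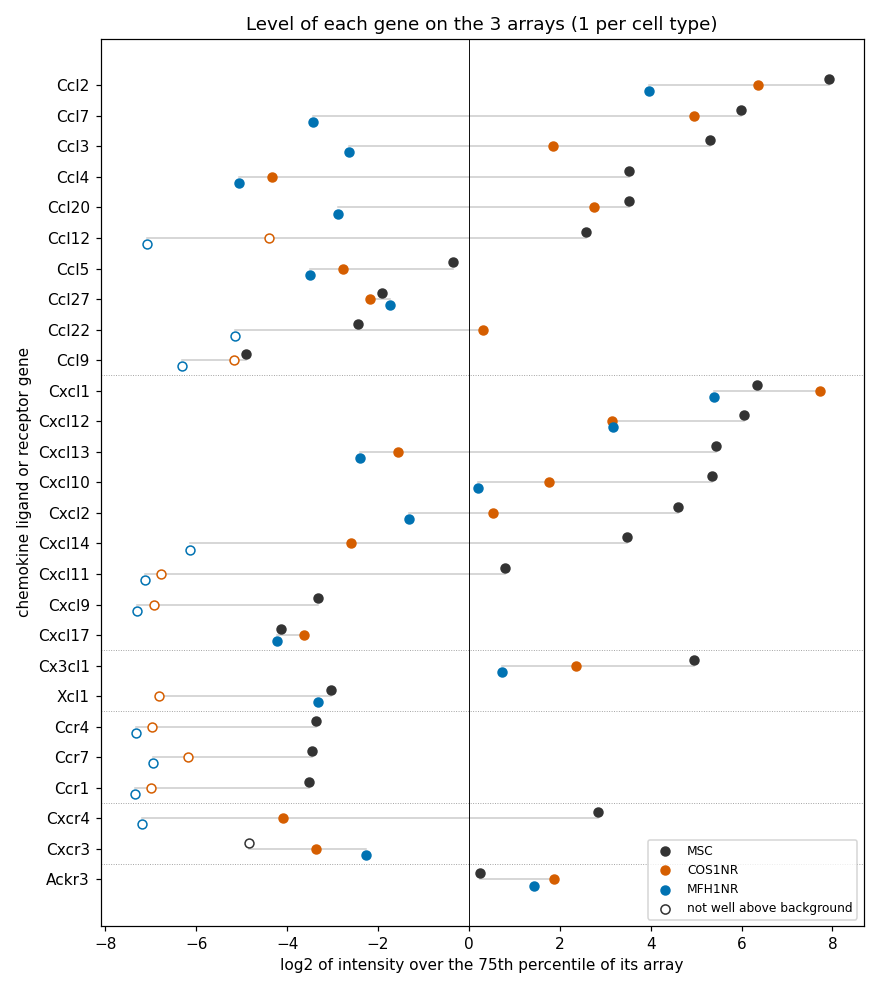
Level of 27 detected genes on each array, as log2 of the intensity over the 75th percentile of its array, 1 point per array and grouped as CC ligands, CXC ligands, other ligands, CC receptors, CXC receptors and the atypical receptor. Open points were not well above background. The MSC point lies to the right for most genes, and Cxcl1, Cxcl17, Ccl22, Ccl27, Cxcr3 and Ackr3 are exceptions. Levels of different genes come from different probes and are not compared.

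The monocyte chemoattractants Ccl2 and Ccl7 remained bright in COS1NR. The intensity of Ccl2 was 142651 for MSCs, 64189 for COS1NR and 15437 for MFH1NR. It is the only one of these genes with a spread within the array, because its probe was printed 10 times, with SDs of 15244 (n = 9 spots, 1 left out as an outlier), 1580 (n = 10) and 507 (n = 10) around means of 143335, 64206 and 15445. The spots of the 3 arrays do not overlap, but they measure printing and hybridization and not separate cultures. Ratios to MSCs were 0.343 in COS1NR and 0.0641 in MFH1NR. Ccl7 had 37155 in MSCs, 24113 in COS1NR and 92.5 in MFH1NR, so it was 2.02-fold lower in COS1NR and 678-fold lower in MFH1NR. Its second probe gave 1.97-fold and 748-fold, and with normexp the log2 ratio in MFH1NR moved from -9.40 to -8.40. The change in COS1NR thus lay at the 2-fold limit, and fell below it with 4 other ways of scaling or background correction. Ccl12, a further monocyte attractant and their neighbor, had 3494 in MSCs and was not detected in either sarcoma, a deficit of at least 125-fold for COS1NR and of at least 196-fold for MFH1NR.

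Ccl3, Ccl4 and Ccl5 are attractants of monocytes and T cells made by macrophages and T cells. Ccl3 had 23212 in MSCs, 2798 in COS1NR and 161 in MFH1NR. Ccl4 had 6809, 38.4 and 30.1 in the same order, close to the background limit in both sarcomas. Ccl5 had 464, 112 and 88.0. Although Ccl3 and Ccl4 are neighbors, they were unequally lower in COS1NR, by 10.9-fold and 233-fold. In MFH1NR they were 244-fold and 382-fold lower. These sizes depend on the background correction, and with normexp the log2 ratio of Ccl4 moved from -7.86 to -6.48 in COS1NR and from -8.58 to -6.87 in MFH1NR, that of Ccl3 in MFH1NR from -7.93 to -7.18 and that of Ccl5 in MFH1NR from -3.15 to -2.51. Ccl5 was 5.43-fold lower in COS1NR and 8.90-fold lower in MFH1NR. Ccl9, at 19.6 in MSCs and not detected elsewhere, was bounded at only 1.1-fold lower in MFH1NR, and no fold can be given for COS1NR.

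Ccl20, the ligand of Ccr6, had 6746 in MSCs, 5194 in COS1NR and 136 in MFH1NR. It was 1.71-fold lower in COS1NR, under 2-fold, and 83.5-fold lower in MFH1NR. With spike-in scaling the log2 ratio in COS1NR was -1.04, over 2-fold, and with normexp that in MFH1NR moved from -6.38 to -5.74. Ccl27, a skin chemokine, had 156, 172 and 300 and differed from MSCs by 1.19-fold or less in either line. Ccl22, a ligand of Ccr4, was read by 2 probes of the same transcript that pointed in opposite directions in COS1NR. The probe used for the counts had 108 for MSCs, 959 for COS1NR and 28.2 for MFH1NR, and was 6.73-fold higher in COS1NR. The other had 174, 123 and 19.5, and was 1.86-fold lower. Neither was detected in MFH1NR, where Ccl22 was at least 6.09-fold and at least 9.77-fold lower, the former bound moving from -2.61 to -1.65 on the log2 scale with normexp. Without Ccl22, 3 genes were at least 2-fold higher in COS1NR.

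Of the CXC ligands, Cxcl1 stood apart from the rest. This neutrophil attractant had 47648 for MSCs, 164118 for COS1NR and 42101 for MFH1NR, a ratio of 2.62 in COS1NR and of 0.524 in MFH1NR. Cxcl2, its neighbor and a ligand of the same receptor, had 14253, 1116 and 399, and was 16.8-fold lower in COS1NR and 60.3-fold lower in MFH1NR. Cxcl6, the other member of the group with a probe, was not detected at 9.67, 19.1 and 7.04. The 3 promoters printed above hold related kappaB matches, while Cxcl1 was highest in COS1NR, Cxcl2 was highest in MSCs and Cxcl6 was dim on every array. Whether the probes cross-hybridize between these related transcripts could not be examined, since probe sequences were not analysed here.

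The interferon-inducible ligands Cxcl9, Cxcl10 and Cxcl11, which share the receptor Cxcr3, lie side by side and were lower in each sarcoma. Cxcl10 had 24187 in MSCs, 2620 in COS1NR and 1154 in MFH1NR, or 12.1-fold and 35.4-fold lower. Cxcl11 had 1026 in MSCs and was not detected in the sarcomas, with bounds of 45.9-fold for COS1NR and 57.6-fold for MFH1NR. Cxcl9 was dim in MSCs as well, at 59.2, so that it was at least 2.65-fold and at least 3.32-fold lower, the latter under 2-fold without scaling (-0.98 on the log2 scale). Cxcl10 was thus the only one of these genes still detected in the sarcomas.

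**Figure D2:**
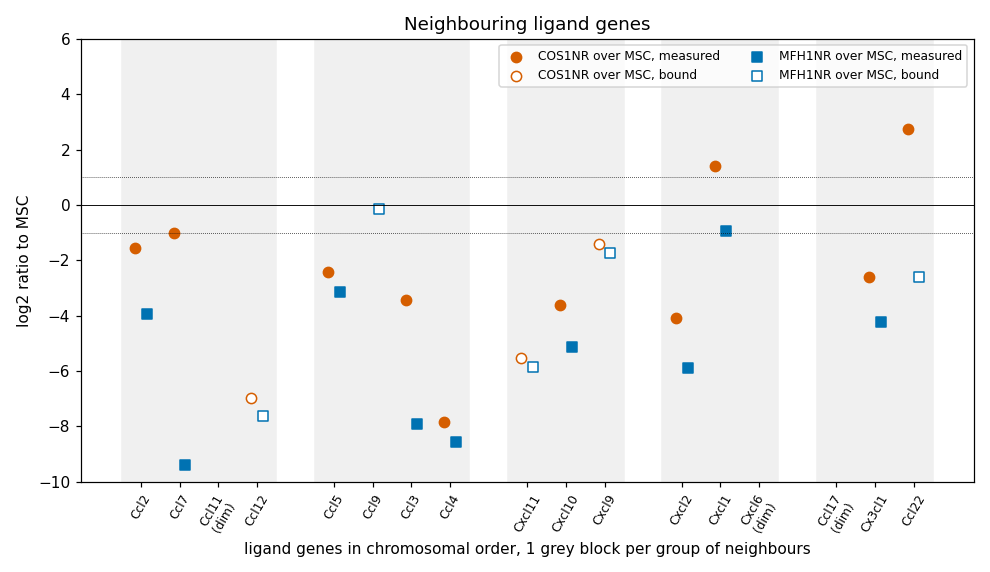
Log2 ratio to MSCs of ligand genes in chromosomal order, with 1 grey block per group of genes that lie within 1 Mb of the next and have at least 2 detected members. Circles show COS1NR and squares MFH1NR, open symbols are bounds, genes without symbols were detected on no array, and dotted lines mark 2-fold. Within blocks the values spread widely, as for Ccl7 and Ccl12 in COS1NR, at -1.02 and -6.96, and for Cxcl2 and Cxcl1, at -4.07 and 1.39.

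Among the chemokines tied to stromal and lymphoid tissue, Cxcl12 was measured by 2 probes for different RefSeq transcripts. The first had 38915 for MSCs, 6843 for COS1NR and 8973 for MFH1NR, and the second 49040, 9546 and 4816. In COS1NR they gave 7.47-fold and 6.75-fold lower, and in MFH1NR 7.32-fold and 17.2-fold lower. The probes thus differed more in MFH1NR, and between the sarcomas the first gave a ratio of MFH1NR to COS1NR of 1.02 and the second one of 0.393. Cxcl13, which attracts B cells, had 25575, 264 and 188, and was 127-fold and 229-fold lower. Cxcl14 had 6553 in MSCs, 129 in COS1NR and was not detected in MFH1NR, 66.8-fold lower and at least 368-fold lower, the latter bound moving from -8.52 to -7.12 on the log2 scale with normexp. These were among the genes furthest below MSCs in each line. Cxcl17, a mucosal chemokine, was dim throughout, at 33.5, 62.3 and 53.1, and differed from MSCs by 1.42-fold or less.

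Cx3cl1, a chemokine anchored in the membrane by a mucin stalk, had 18205 in MSCs, 3984 in COS1NR and 1649 in MFH1NR. It was 6-fold and 18.6-fold lower, and its second probe gave 6.11-fold and 18.7-fold. Xcl1, a lymphocyte chemokine, had 71.5 in MSCs and 99.4 in MFH1NR and was undetected in COS1NR, a deficit of at least 3.20-fold. After scaling, its ratio in MFH1NR was 0.823. Xcl1 was the only ligand detected in MSCs and MFH1NR and not in COS1NR.

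**Figure D3:**
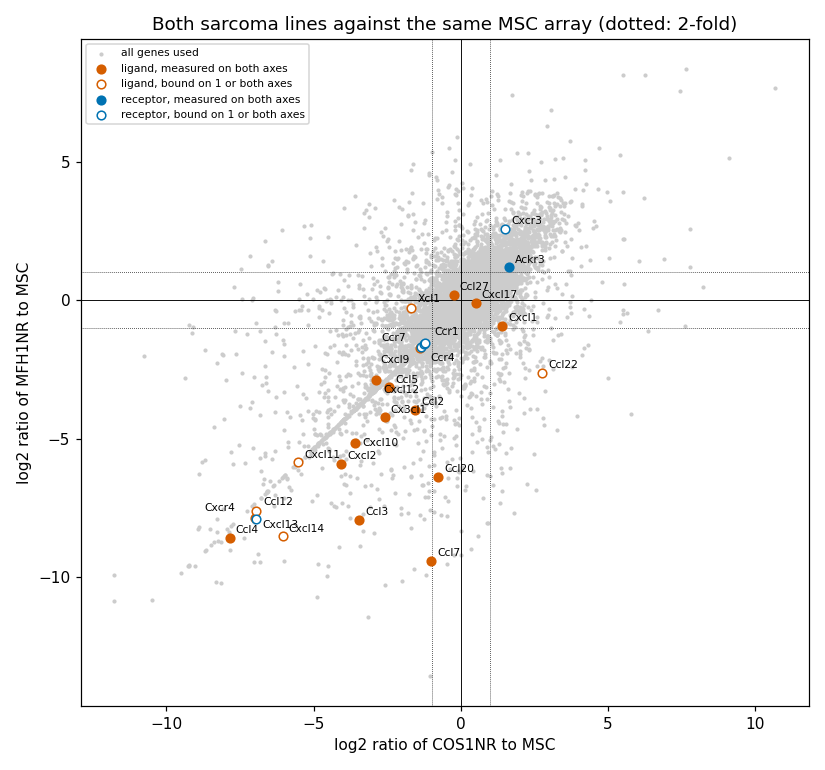
Log2 ratio of COS1NR to MSCs (horizontal) and of MFH1NR to MSCs (vertical) for the genes with a value on both axes, over all genes used (grey). Both axes are set against the same MSC array, open symbols are bounds on at least 1 axis, and dotted lines mark 2-fold. Ccl7 and Ccl20 lie at -1.02 and -0.77 for COS1NR but at -9.40 and -6.38 for MFH1NR, and Cxcr3 and Ackr3 are in the upper right.

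Receptors were few. Ccr1, Ccr4 and Ccr7 were close to background in MSCs and undetected elsewhere. Ccr1, a receptor of Ccl3 and Ccl5, had 51.8, Ccr4, the receptor of Ccl22, had 57.3, and Ccr7, the receptor of Ccl19 and Ccl21, had 53.5. Their bounds lay between 2.31-fold and 2.56-fold in COS1NR and between 2.91-fold and 3.22-fold in MFH1NR, and without scaling all of them were under 2-fold. No CC receptor of the naming rule was detected in either sarcoma.

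The receptors of Cxcl12 differed in direction. Cxcr4 had 4239 in MSCs and 45.2 in COS1NR by the probe used for the counts, and was not detected in MFH1NR. Relative to MSCs, this was 123-fold lower for COS1NR and a bound of 238-fold for MFH1NR. The other probe, with 4712 in MSCs, was not detected in either sarcoma and gave at least 211-fold and at least 264-fold. Ackr3, formerly CXCR7 and the atypical receptor of Cxcl12, had 701 in MSCs, 2843 in COS1NR and 2672 in MFH1NR, 3.09-fold and 2.26-fold higher. Cxcr3, the receptor of Cxcl9, Cxcl10 and Cxcl11, was undetected in MSCs, at 20.4, and had 74.9 in COS1NR and 205 in MFH1NR. It was at least 2.80-fold and at least 5.98-fold higher. With the normexp background correction, these bounds became 0.31 and 0.85 on the log2 scale, under 2-fold, whereas Ackr3 kept its side of the 2-fold limit under every alternative scaling and background correction tried.

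For several ligands, the receptor best known to bind them was detected on no array. Ccl2, Ccl7 and Ccl12 were detected while Ccr2 was not, Ccl20 while Ccr6 was not, Cxcl1 and Cxcl2 while Cxcr2 and Cxcr1 were not, Cxcl13 while Cxcr5 was not, and Cx3cl1 while Cx3cr1 was not. Ccr2 had intensities between 4.33 and 6.53 and Cx3cr1 between 6.13 and 6.53. In MSCs, Ccl3 and Ccl5 were detected with Ccr1, and Cxcl12 with Cxcr4 and Ackr3. In the sarcomas, pairs detected included Cxcl12 with Ackr3 and Cxcl10 with Cxcr3, and in COS1NR also Cxcl12 with Cxcr4, by 1 of its probes. An undetected probe sets an upper limit on its signal and does not show that the receptor is absent.

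The sarcomas shared a slide, and between them a fold could be given for 20 of the 28 genes. MFH1NR was at least 2-fold below COS1NR for 10 of the 28 genes (35.7%), all of them ligands, against 14.2% of all genes, and above it for 2 (7.14%), against 11.7%. Among the 15 genes detected on all arrays, 8 were lower and 0 higher, against 12.1% and 9.68% of all genes so detected. The median log2 ratio was -1.25, beside -0.09 for all genes. With spike-in scaling, which raised the median of all genes from -0.09 to 0.71, the counts became 8 lower and 3 higher, as Cx3cl1 (-0.84) and Cxcl10 (-0.75) came under 2-fold and Ccl27 (1.23) over it. The most different was Ccl7, 335-fold lower in MFH1NR (379-fold by its second probe), followed by Ccl20 at 48.9-fold and Ccl22, with a bound of 41.0-fold (5.25-fold by its second probe). With normexp, the log2 ratio of Ccl7 moved from -8.39 to -7.52, that of Ccl20 from -5.61 to -5.01, and that of Ccl22 from -5.36 to -3.82, less far than Ccl3 at -3.94. That of Cxcl14 moved from -2.46 to -1.55. Ccl3 was 22.4-fold lower, Ccl2 5.34-fold, Cxcl1 5.01-fold, Cxcl2 3.60-fold, Cx3cl1 3.10-fold, Cxcl10 2.92-fold and Cxcl14 at least 5.50-fold. Higher in MFH1NR were Cxcr3, 2.13-fold, and Xcl1, at least 2.63-fold, but with the normexp correction both were under 2-fold, at 0.54 and 0.85 on the log2 scale. Ccl4, Ccl5, Cxcl13, Cxcl17, Ccl27 and Ackr3 were within 2-fold of each other in the sarcomas.

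**Figure D4:**
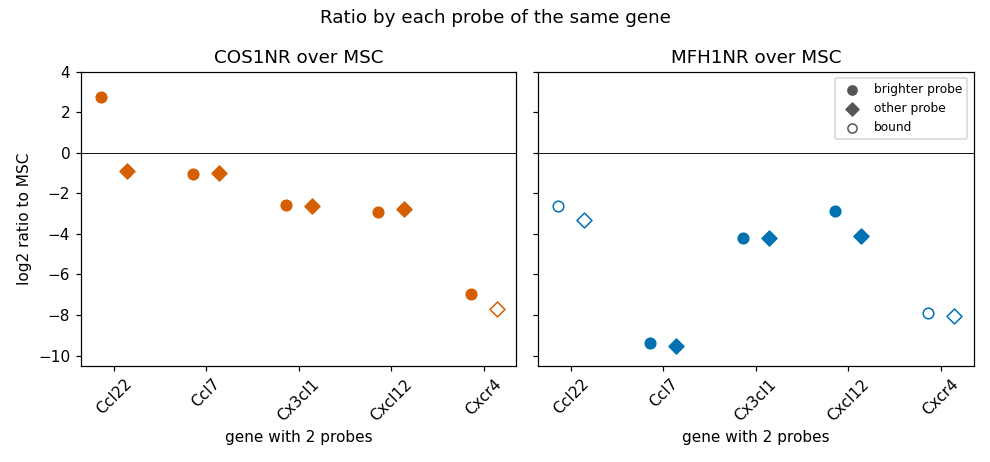
Log2 ratio to MSCs by each of the 2 probes of 5 detected genes that had several, for COS1NR (left) and MFH1NR (right). Circles show the brighter probe over all arrays, diamonds the other, and open symbols bounds. Probes of Ccl7 and Cx3cl1 nearly coincide, whereas those of Ccl22 lie at 2.75 and -0.89 in COS1NR and those of Cxcl12 at -2.87 and -4.10 in MFH1NR.

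Error within an array can be gauged from repeated spots and from pairs of probes. Probes printed 8 or more times (180, 162 and 164 of them on the MSC, COS1NR and MFH1NR arrays) had a median SD of 0.0575, 0.0479 and 0.0469 on the log2 scale. Over all genes with 2 detected probes, the median gap between their log2 ratios was 0.28 for COS1NR against MSCs (1984 genes), 0.32 for MFH1NR (1985 genes) and 0.15 between the sarcomas (1941 genes), and 1 gene in 10 differed by more than 0.93, 1.01 and 0.60. Ccl27 and Cxcl17 lay within 1 of MSCs on the log2 scale in both lines, no further than probes of a gene can differ. The disagreement of Ccl22 in COS1NR was wider than in 9 of 10 genes.

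Macrophage markers were lower in the sarcomas, as were most chemokine genes. Of 16 macrophage markers, 15 had a named probe and 14 were detected for MSCs, 7 for COS1NR and 6 for MFH1NR. Their scaled intensities summed to 128, 9.66 and 4.69 in that order. All 14 were at least 2-fold lower in COS1NR and in MFH1NR, against 19.4% and 21.2% of all genes, but 7 of them were detected in MSCs alone and could only be lower. Among them, the receptor of macrophage growth factor Csf1r had 1238, 51.7 and 48.9, Cd68 had 7120, 3135 and 956, Cd14 had 25626, 3387 and 3095, Adgre1 had 2160 and was not detected in the sarcomas, and Cd163 was dim in MSCs at 57.3. Marco was detected nowhere, and Ptprc, the pan-leukocyte antigen CD45, had 57.5 in MSCs. Macrophages make Ccl3, Ccl4, Ccl12, Cxcl2 and Cxcl13 and carry Cxcr4, and the part of such cells in the results was not tested. Of 7 T cell markers with a named probe, 4 were detected in MSCs, Cd3e, Cd3g and Cd5 were detected nowhere, and Cd3d had 452, 893 and 627. Cd8a and Cd4, at 68.5 and 38 in MSCs, were undetected in the sarcomas, and Lck was 2.43-fold higher in COS1NR, at 23.1 and 73.8, and undetected in MFH1NR. The sums of this list were 0.988, 1.27 and 0.667. Cd79b of the B cell list was detected nowhere, and the sums of that list are those of Blnk alone, at 382, 123 and 96.5. Of the neutrophil list, Elane and S100a9 were detected nowhere, S100a8 and Csf3r were detected in COS1NR alone, at 292 and 132 (at least 12.4-fold and 5.62-fold higher than in MSCs), Ngp in MFH1NR alone, at 63.4, and Camp had 160 in MSCs and 219 in COS1NR. The part of such cells was not tested. The sums of these lists were 0.648, 0.159 and 0.0971 for B cells and 0.310, 0.840 and 0.0998 for neutrophils. Of the endothelial list, Pecam1, Tek and Emcn were detected nowhere, and the sums of 0.564, 0.164 and 0.104 rest on Kdr, at 306, 78.8 and 80.8, and Cdh5, at 26, 48.3 and, undetected, 22.6.

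The labelled identities were checked in the same way. All 10 stromal markers were detected in MSCs and 7 in each sarcoma, with sums of 550, 131 and 253 for MSCs, COS1NR and MFH1NR. Most of the sum of COS1NR is Col1a1, at 83826, 87747 and 108611 in that order. Its ratios to MSCs were 0.797 in COS1NR and 0.768 in MFH1NR. Of the 10 stromal markers, 8 were at least 2-fold lower than MSCs in COS1NR and 6 in MFH1NR, and 0 were higher. Lower by as much were 19.4% and 21.2% of all genes. The median log2 ratios of the markers were -3.98 and -1.59. Eng and Lepr, detected in MSCs alone, could only be lower. Pdgfrb had 31530, 2374 and 7201, Pdgfra had 7621, 353 and 10693, and Thy1 had 2781 in MSCs and 2632 in MFH1NR and was not detected in COS1NR. Eng had 561 in MSCs and was undetected in the sarcomas, and Dcn had 22059 in MSCs and 4845 in COS1NR and was undetected in MFH1NR, at least 1238-fold lower. Of 5 osteoblast markers with a named probe, 4 were detected in COS1NR, but 4 were at least 2-fold lower there than in MSCs, and the osteoblast factor Sp7 was detected in MFH1NR only, at 108. The sums were 75.5, 30.8 and 153 for MSCs, COS1NR and MFH1NR, lowest in the line labelled osteosarcoma. They rest mostly on Spp1, at 36180, 22285 and 149222. In MFH1NR, Spp1 and Sp7 were 2.44-fold and at least 3.58-fold higher than in MSCs. Ibsp and Bglap were 172-fold and 5.41-fold lower there, and Alpl was 1.79-fold lower, under 2-fold. Thus 2 were higher and 2 lower at 2-fold, against 19.0% and 21.2% of all genes. Between the sarcomas, 3 markers were at least 2-fold higher in MFH1NR, namely Spp1 (5.21-fold), Alpl (2.07-fold) and Sp7 (at least 2.86-fold), and 1, Ibsp, was 12.2-fold lower. By as much, 11.7% of all genes were higher and 14.2% lower.

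Downstream of the receptors, most signaling genes were detected in all cells. Of 39 genes with a named probe for signal transduction from chemokine receptors, 12 were at least 2-fold lower and 4 higher in COS1NR, and 12 lower and 2 higher in MFH1NR, with median log2 ratios of -0.39 and -0.57. Plcb2, Vav1, Prex1 and Ptk2b of this list were detected in MSCs alone and could only be lower. Of all genes, 19.4% were lower and 20.0% higher in COS1NR, and 21.2% and 19.0% in MFH1NR, and these shares are the background of the list counts against MSCs that follow. The inhibitory G protein subunits Gnai2 and Gnai3 had ratios to MSCs of 0.649 and 2.34 for COS1NR, and of 1.01 and 1.22 for MFH1NR. Of 11 detected genes that desensitize these receptors, 3 were lower and 1 higher in each line, with medians of -0.03 and -0.24. Rgs1, Rgs16 and Rgs18 of these were detected in MSCs alone and could only be lower. The arrestins Arrb1 and Arrb2, which Ackr3 recruits, stood at 1.25 and 0.980 times MSCs for COS1NR, and at 1.81 and 1.52 times for MFH1NR.

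The induction of chemokines draws on NF-kB and on interferon receptors. Of 10 detected NF-kB subunits and feedback genes, 7 were at least 2-fold lower and 0 higher in COS1NR, and 8 lower and 1 higher in MFH1NR, with medians of -1.33 and -1.60, against 19.4% and 21.2% of all genes lower. Nfkb1, Relb, Rel, Nfkbiz and Tnfaip3 of the same list had no named probe. The subunits Nfkb2 and Rela stood at 0.413 and 0.381 times MSCs for COS1NR, and at 0.328 and 0.342 times for MFH1NR. The inhibitor Nfkbia, itself an NF-kB target, had 62235 in MSCs, 28047 in COS1NR and 7017 in MFH1NR, ratios of 0.343 and 0.0668. Of 10 detected genes of interferon signaling, 5 were lower in COS1NR and 6 in MFH1NR and 0 were higher, with medians of -1.09 and -1.19. The receptor chains Ifngr1 and Ifngr2 stood at 0.421 and 0.514 times MSCs for COS1NR, and at 0.240 and 0.398 times for MFH1NR. Of 10 detected proteases known to cut or shed chemokines, 6 were lower in each line and 1 was higher in MFH1NR, with medians of -2.77 and -1.29, and 5 were higher and 2 lower in MFH1NR than in COS1NR, against 11.7% and 14.2% of all genes. Dpp4, Ctss and Cma1 of these were detected in MSCs alone and could only be lower in the sarcomas. Mmp2, which trims Ccl7 and Cxcl12, had 38198 for MSCs, 323 for COS1NR and 27716 for MFH1NR, and the sheddase Adam17, which releases Cx3cl1, had 1424, 1764 and 935.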

How the data were processed

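RNA of COS1NR, MFH1NR and MSCs was labeled with Cy3 and hybridized to 1 whole rat genome array each. The authors deposited the 1-color output of Agilent Feature Extraction (version 10.5.1.1 per the file headers, 9.1 per the submitters' processing notes), whose processed intensity is background-subtracted and detrended within the array with no scaling between arrays. The series table held the same intensity values on 3 of 3 arrays. Control spots and outlier spots (187 to 217 per array) were left out, and spots of a probe were averaged on the log2 scale, which left 40816 probes. Probes were named by RefSeq accession through a GRCr8 gene table (16745 probes, 13301 genes). The files name the earlier build rn4, so no coordinates of probes are given. A gene was read from its probe of highest mean log2 intensity.

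Each intensity was divided by the 75th percentile of its array. A fold against an undetected probe used its own intensity or, if higher, the lowest intensity detected on that array. Genes detected on at least 1 array were counted at 2-fold, with no test. Genes of the naming rule are named, with values where detected, apart from an item that is not reported here and is kept in the counts. Of other lists, the first 5 detected genes in the order of the list could be named, and other list genes named were chosen after their values were seen. The genes and lists were chosen with earlier results of these data known. Counting was tested on simulated data. Alternatives were no, median, quantile and spike-in scaling (7 probes), normexp with an offset of 50 on median spot and background intensities, the series table, filters and a floor on dim probes, the mean or the other probe of a gene, and 3-fold. Python 3.11.15, numpy 2.4.6, pandas 2.3.3, matplotlib 3.10.9, R 4.3.3 and limma 3.58.1 were used.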

Additional observations from a re-analysis of the deposited data

Results flagged for a closer look

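Cxcl1 and Ccl22 had ratios of opposite sign in the sarcomas relative to the same MSC array. Cxcl17 (log2 0.5 and -0.09) and Ccl27 (-0.25 and 0.19) also had opposite signs, but were under 2-fold in both lines. For Cxcl1 the log2 ratio was 1.39 for COS1NR and -0.93 for MFH1NR. The latter was under 2-fold and within the gap of 1.01 that the probes of 1 gene in 10 exceed, and it was -0.18 without scaling and -0.41 with spike-in scaling. Ccl22 had 2.75 in COS1NR and, as a bound, -2.61 in MFH1NR by the probe used for the counts, and -0.89 and -3.29 by its other probe, so that its opposite sign rests on 1 probe. Neither difference was tested, because each cell type had 1 array.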

How the results depend on the processing

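With each alternative under which genes were counted, which leaves out the other probe of a gene, more genes were lower than higher in every comparison. Without scaling, the median log2 ratio of the chemokine genes moved to -1.28 in COS1NR, -3.21 in MFH1NR and -0.88 between the sarcomas, and the medians of all genes to 0.52, 0.79 and 0.27, while 16 genes were lower in COS1NR and 17 in MFH1NR. With spike-in scaling, the median between the sarcomas was -0.46. With the normexp correction, 1 gene was at least 2-fold higher in MFH1NR than in MSCs and 0 were higher in MFH1NR than in COS1NR. With only the 15 genes detected on all arrays, 10 were lower and 2 higher in COS1NR, 11 lower and 1 higher in MFH1NR, and 0 higher in MFH1NR than in COS1NR, with medians of -2.44, -4.22 and -1.54. With no filter on dim probes, all 49 genes entered and the medians were -0.25, -0.96 and -0.36. The floor gave -0.52 between the sarcomas and the mean of all probes -1.54. At 3-fold, 14 genes were lower and 2 higher in COS1NR, 20 lower and 1 higher in MFH1NR, and 9 lower and 0 higher in MFH1NR than in COS1NR. Ccl22 in COS1NR turned to -0.89 by its other probe. The cause of the other moves was not tested. For undetected probes only a bound exists, and the bounds move with the correction: with normexp, the log2 ratios for COS1NR and MFH1NR were -5.57 and -6.01 for Ccl12, -3.96 and -4.09 for Cxcl11 and -5.69 and -6.57 for Cxcr4. No paired analysis was possible because each group has 1 array.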
